A study of Homo sapiens with 6 samples.

Results

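The genes that encode integrin chains and laminin chains were followed in RNA-seq data from control and FAM60A-knockout human cells. A gene was a member when its symbol is that of a protein-coding integrin alpha chain, integrin beta chain or laminin chain, and 38 of the 62754 genes in the count table met this rule. These were 18 integrin alpha chains, 8 integrin beta chains, 5 laminin alpha chains, 4 laminin beta chains and 3 laminin gamma chains.

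Integrins are receptors of the cell surface made of 1 alpha and 1 beta chain, which bind matrix proteins or other cells on the outside and are tied to actin filaments by adaptor proteins on the inside. Laminins are cross-shaped secreted proteins made of 1 alpha, 1 beta and 1 gamma chain, and they form the sheet of the basement membrane on which epithelial cells sit. The ligands that a cell can bind through integrins depend on the alpha and beta pairs that it makes, and the 3 chains of a laminin join inside the cell before secretion.

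RNA was sequenced from HEK293 cells in 3 control libraries and 3 with FAM60A knocked out. HEK293 is a transformed line from human embryonic kidney. The titles say HEK293, whereas the cell line label says HEK293T, the derivative that carries the SV40 large T antigen. FAM60A (symbol SINHCAF) encodes a protein of the Sin3/HDAC corepressor, which removes acetyl groups from histones, and the gene was disrupted with Cas9 and guide RNAs to 3 of its regions. Knockout libraries came from a pool of puromycin-selected cells and not from 1 clone. The labels list the other group as Control and do not say whether it received a vector or puromycin. Nothing in the labels says that replicates were separate cultures, so p-values measure the spread between these libraries, which may be technical. Control replicates 1 to 3 held totals of 92736586, 93172005 and 93346824 counts, and knockout replicates 1 to 3 held 88361827, 91279417 and 90771711. Wherever 6 counts are given, they follow this order.

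The targeted gene was measured first. FAM60A had 11028, 10165 and 12792 counts in the control libraries and 5684, 5793 and 5449 in the knockout libraries. All 3 knockout libraries lay below all 3 control libraries, at 65.0 ± 3.01 against 117 ± 13.7 CPM (counts scaled to a common library total; SD, n = 3 each; corrected with edgeR's TMM factors, as are all CPM below). The log2 fold change was -0.85 ± 0.11 (SE; adjusted p = 0.00863, edgeR quasi-likelihood test with Benjamini-Hochberg adjustment). An exact two-sided permutation test of the CPM gave p = 0.1, the smallest value possible with 3 libraries against 3.

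Markers of the line were present. All 9 genes of a HEK293 list, which holds intermediate filament genes and kidney developmental regulators, were detected, with KRT8 the most abundant. Their summed level was 1680, 1730 and 1000 CPM in control against 844, 952 and 803 CPM in knockout. The sum is carried by KRT8 and VIM, in which control replicate 3 lay near the knockout libraries. In edgeR 2 of the 9 genes passed an adjusted p of 0.05, as did 16.6% of all genes. Both were lower in every knockout library than in every control. They were LHX1, at 13.6, 12.3 and 4.03 CPM in control against 2.67, 2.56 and 2.68 CPM in knockout (adjusted p = 0.0353), and NEFM, with a log2 fold change of -0.77 ± 0.20 (adjusted p = 0.0493). Control replicate 3 also lay apart from all other libraries in some genes of the list. PAX2 was at 1.48, 1.67 and 5.97 CPM in control against 1.95, 1.89 and 2.06 CPM in knockout, NEFL at 78.5, 80.7 and 143 against 83.8, 95.9 and 82.6 CPM, and EYA1 at 13.1, 11.4 and 4.74 against 8.53, 8.57 and 8.73 CPM. The part of these differences in the results below was not tested.

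Control replicate 3 stood apart from control replicates 1 and 2 in the integrin and laminin genes as well. It differed by at least 2-fold from their mean in 16 of the 36 members that could be tested (44.4%), against 4827 of all 20992 genes tested (23.0%). In 20 of the 36 members (55.6%) it lay nearer the mean of the knockout libraries than that of control replicates 1 and 2, against 58.9% of all genes. The knockout libraries differed by at least 2-fold from control replicates 1 and 2 in 11 members, and in 8 of these (72.7%) control replicate 3 lay nearer the knockout libraries, against 68.8% of the 4414 such genes in the whole table. For the members described by their counts, this library is therefore shown apart. Because these are bulk libraries, a smaller share of cells expressing a gene and less RNA per cell cannot be told apart.

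**Figure D1:**
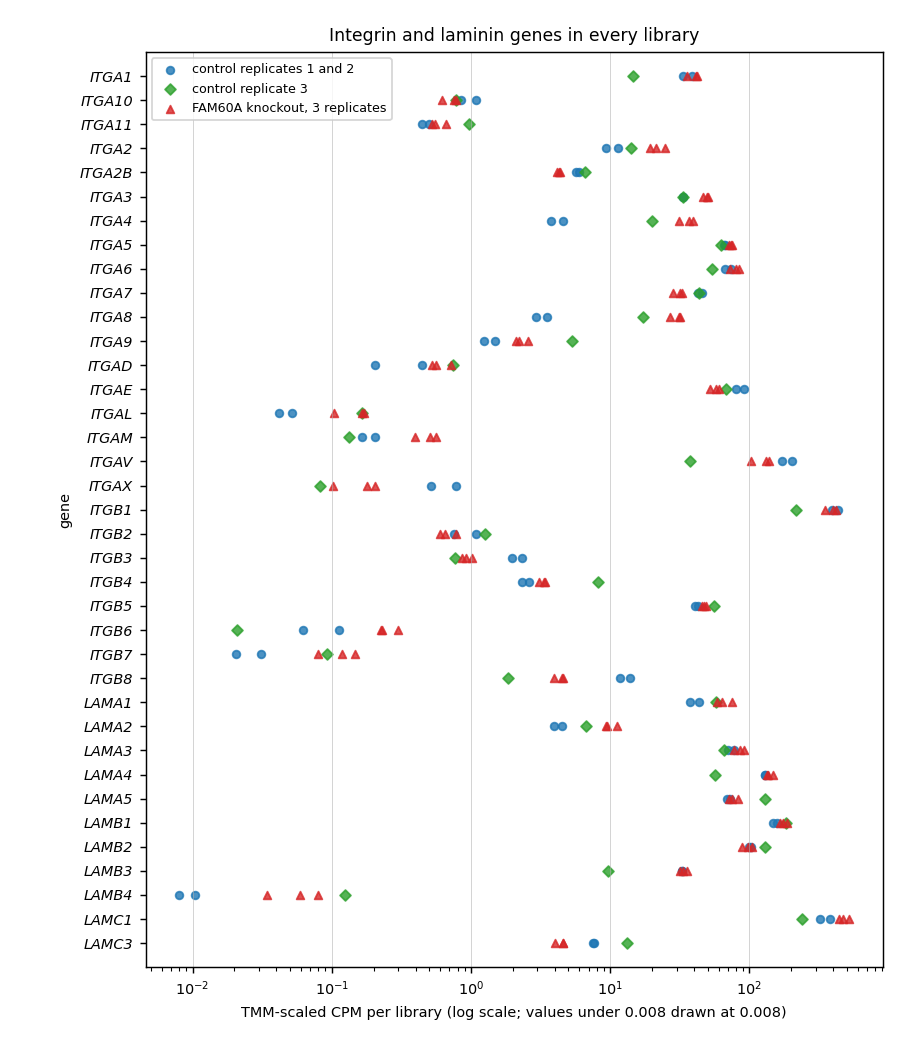
TMM-scaled CPM of 37 integrin and laminin genes in each of the 6 libraries on a log axis, with circles for control replicates 1 and 2, a diamond for control replicate 3 and triangles for the knockout libraries. For ITGA4 and ITGA8 the diamond lies between the circles and the triangles, for ITGAV, ITGB8 and LAMB3 it lies below all other libraries, and for ITGA9 and ITGB4 it lies above them.

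A gene was called when its adjusted p was at most 0.05 and its absolute log2 fold change at least 1, the threshold of the study's methods. ITGB7 and LAMB4 had too few counts to be tested. Among the other 36 members, 2 were called (5.56%): ITGAM, higher in knockout, and LAMC3, lower. The background over all genes tested was 1482 of 20992, or 7.06%, so the members' share was near it in edgeR. Without the fold threshold, 6 of 36 members passed (16.7%), against 3491 of all genes (16.6%). ITGA2, ITGA3, ITGAM and LAMA2 rose, and ITGA7 and LAMC3 fell. The median log2 fold change of the 36 members was 0.17, beside -0.0081 for all genes, and 21 were fitted higher and 15 lower. It was 0.027 for the 25 integrin chains tested and 0.40 for the 11 laminin chains tested, and without control replicate 3 it was 0.14 and 0.17. When library size replaced TMM, the integrin chains' median turned to -0.081, while that of all genes moved by -0.109.

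The split of the calls by direction was compared between settings. Of the 1482 calls among all genes, 702 were higher and 780 lower (47.4% higher), whereas with library size in place of TMM 583 were higher and 1025 lower (36.3% higher). With library size the members called were again 1 higher and 1 lower, and without the fold threshold 4 higher and 4 lower. Using DESeq2, which changes the test as well as the scaling, 5 members were called higher and 1 lower (16.7%, beside 9.23% of all genes), and with limma-voom after quantile normalization, where both also differ, 4 higher and 1 lower (13.9%, beside 7.40%). Without the fold threshold 13 members passed in DESeq2 (36.1%, beside 26.8%) and 11 in limma-voom (30.6%, beside 17.2%). The members' share was thus above that of all genes with both of these tools.

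When control replicate 3 was left out, 12 of the 37 members then tested were called (32.4%; 9 higher and 3 lower), but so were 4965 of all 21686 genes (22.9%). Without the fold threshold the share was 24 of 37 members (64.9%), with 14221 of all genes (65.6%) past the same threshold. Among the called members were ITGA2, ITGA4, ITGA8, ITGAL, ITGAM, ITGB6 and LAMA2, higher in knockout, and ITGAX, ITGB3 and ITGB8, lower. The counts of 12 and 24 also include ITGB7, which passed the filter only through its knockout libraries. A member's call in this comparison of 3 against 2 libraries thus has a high background. Across all 6 libraries, 16 of 36 members (44.4%) had knockout CPM that did not overlap the control CPM, 12 above and 4 below. The share for all genes was 41.6%.

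**Figure D2:**
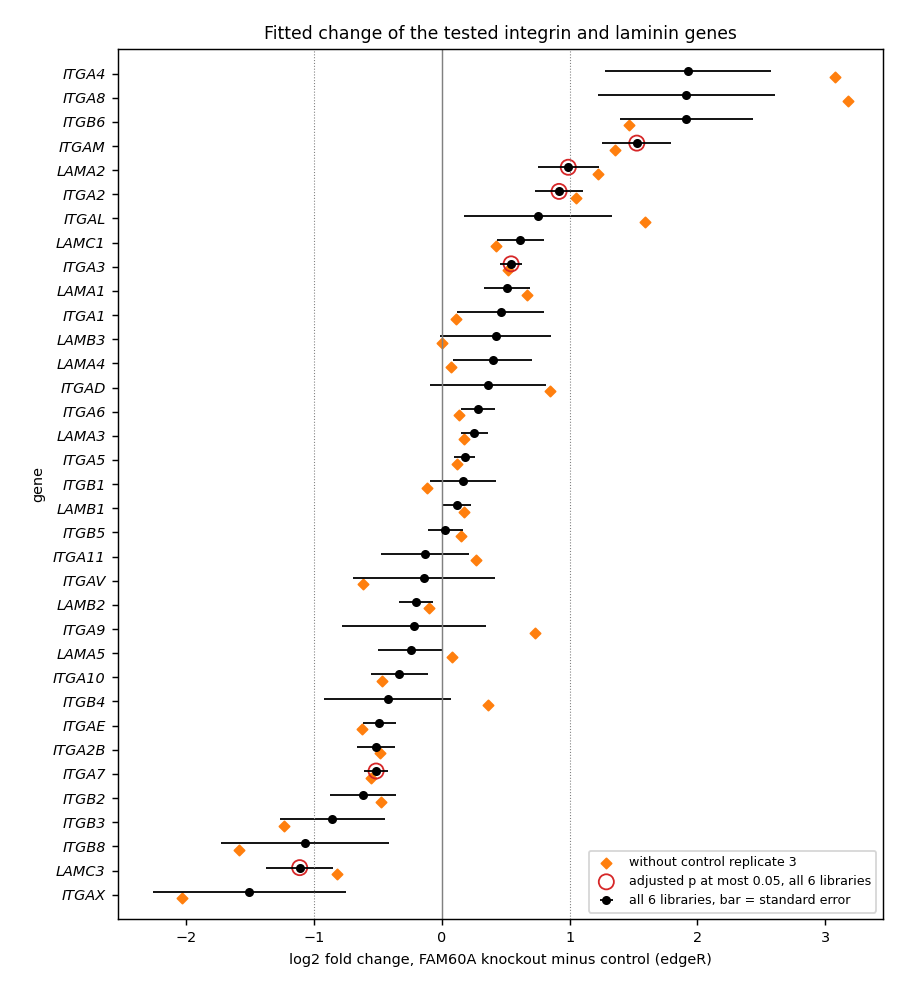
Log2 fold change of knockout against control for 35 tested members, from edgeR with all 6 libraries (circles, bars give the standard error) and without control replicate 3 (diamonds), with red rings around the 6 members whose adjusted p was at most 0.05 with all libraries and dotted lines at a log2 fold change of -1 and 1. ITGA4 and ITGA8 lie furthest to the right without control replicate 3, and their standard errors with all libraries are 0.65 and 0.69.

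Abundance was compared between genes per length, as TPM, the share of length-scaled counts in a library over all annotated exon bases. LAMC1, the gamma chain of most laminins, had the highest mean, at 113 ± 30.0 TPM in control and 140 ± 11.8 TPM in knockout libraries (SD, n = 3 each). ITGB1, the beta chain with the most alpha partners, followed at 72.8 ± 26.6 and 66.1 ± 5.12 TPM. Next came LAMB2, a laminin beta chain abundant in kidney glomeruli and at synapses, with 48.9 ± 5.38 and 34.9 ± 2.53 TPM. ITGA6, a laminin-binding alpha chain, had 29.5 ± 5.78 and 29.2 ± 1.81 TPM, and ITGAE, the alpha chain of the E-cadherin receptor of intraepithelial lymphocytes, 36.7 ± 6.35 and 21.3 ± 1.22 TPM. The control spreads of LAMC1 and ITGB1 overlapped, and with the length of the canonical transcript, a choice made after seeing the data, ITGB1 came first at a mean of 180 TPM over the 6 libraries and LAMC1 second at 90.0 TPM. By that length LAMB1, at a mean of 54.4 TPM, and ITGAV, at 34.4 TPM, also ranked above LAMB2, ITGAE and ITGA6. With all exon bases, a mean of at least 1 TPM was reached by 25 of the 38 members. TPM are shares of a library and serve here only to rank genes within it.

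Changes are described first for the alpha chains that bind laminin. ITGA3, a main receptor chain for epithelial laminins, had 3233, 3193 and 3237 counts in control and 4164, 4047 and 4413 in knockout libraries. The groups did not overlap, control replicate 3 matched the other controls, and the log2 fold change was 0.54 ± 0.08 (adjusted p = 0.0126, edgeR quasi-likelihood test). ITGA7, best known as the laminin receptor chain of muscle, went the other way, with 4186, 4373 and 4189 counts against 2651, 2467 and 2886. Here too all knockout libraries lay on 1 side of all controls, and the log2 fold change was -0.52 ± 0.10 (adjusted p = 0.0204, edgeR). ITGA6 had 7149, 6408 and 5194 counts against 6711, 6384 and 7382, with overlapping groups and a log2 fold change of 0.28 ± 0.14 (adjusted p = 0.194, edgeR).

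Of the 4 alpha chains that bind collagen, 1 passed the test without the fold threshold, as did 16.6% of all genes. ITGA2, a receptor chain for fibrillar collagens, had 1098, 898 and 1350 counts in control and 1813, 1689 and 2169 in knockout libraries. Every knockout library exceeded every control, with control replicate 3 the highest control, and the log2 fold change was 0.92 ± 0.19 (adjusted p = 0.0246, edgeR). ITGA1, which prefers basement membrane collagen, had 3755, 3198 and 1405 counts against 3470, 3111 and 3725. Only its count in control replicate 3 was low, and the log2 fold change was 0.46 ± 0.34 (adjusted p = 0.383, edgeR). ITGA10 and ITGA11, which bind collagen in cartilage and in fibroblasts, were below 1 TPM, with log2 fold changes of -0.33 ± 0.22 and -0.13 ± 0.34, which became -0.47 and 0.27 without control replicate 3.

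In edgeR with all 6 libraries ITGA4 and ITGA8 had the highest fitted log2 fold changes of the members. ITGB6, at 1.91, equalled ITGA8 to the digits given. Neither ITGA4 nor ITGA8 passed in that fit, whereas both passed in DESeq2 and limma-voom. ITGA4 is the alpha chain of the receptors for VCAM1 and for an alternatively spliced part of fibronectin. It had 444, 361 and 1924 counts in control and 3100, 2756 and 3469 in knockout libraries. Control replicate 3 lay between the other controls and the knockout libraries, although the groups did not overlap. The log2 fold change was 1.93 ± 0.65 with all libraries (adjusted p = 0.0901, edgeR; 0.00758, DESeq2; 0.0292, limma-voom) and 3.07 without control replicate 3. ITGA8 pairs with ITGB1 in the nephronectin receptor that is needed for kidney outgrowth. Its counts, 343, 283 and 1677 against 2662, 2371 and 2755, had the same order of libraries, with control replicate 3 at an intermediate level. This gave a log2 fold change of 1.91 ± 0.69 (adjusted p = 0.106, edgeR; 0.0128, DESeq2; 0.031, limma-voom), and 3.18 without control replicate 3. ITGA9, the chain closest in sequence to ITGA4, had 145, 118 and 513 counts against 179, 195 and 226. Control replicate 3 was its highest library, so that the log2 fold change was -0.22 ± 0.57 with all libraries and 0.73 without it.

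The genes lie on different chromosomes. In GRCh37, ITGA4 spans chr2:182321929-182403667 on the plus strand and ITGA8 spans chr10:15555953-15761921 on the minus strand. Exons of the opposite-strand gene CERKL cover 26.4% of the ITGA4 exon bases, and it is not stated whether reads were counted by strand. CERKL itself had 37, 23 and 142 counts in control and 122, 89 and 106 in knockout libraries, far fewer than ITGA4, with control replicate 3 the highest library.

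The promoters of ITGA4 and ITGA8 are shown because both genes were high in the knockout libraries and intermediate in control replicate 3, and that of ITGB8, a beta chain that was lower in the knockout libraries than in control replicates 1 and 2, is shown for contrast. Each line holds the 250 bases before the RefSeq transcription start in GRCh38.p14, read 5′ to 3′ on the strand of the gene, with capitals for a GC box (GGGCGG or its reverse complement). The windows are chr2:181457136-181457385 (plus strand), chr10:15719923-15720172 (minus strand) and chr7:20330650-20330899 (plus strand).
ITGA4: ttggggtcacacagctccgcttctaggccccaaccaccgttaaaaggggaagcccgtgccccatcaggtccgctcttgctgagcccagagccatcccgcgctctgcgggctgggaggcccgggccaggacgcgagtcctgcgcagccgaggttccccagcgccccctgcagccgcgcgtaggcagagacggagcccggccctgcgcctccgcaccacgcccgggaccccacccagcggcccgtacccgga
ITGA8: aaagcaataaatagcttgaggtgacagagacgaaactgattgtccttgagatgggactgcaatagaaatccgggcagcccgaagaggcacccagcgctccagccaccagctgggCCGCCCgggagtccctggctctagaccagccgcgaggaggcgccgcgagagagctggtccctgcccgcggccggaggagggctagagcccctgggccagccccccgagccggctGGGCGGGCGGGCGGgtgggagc
ITGB8: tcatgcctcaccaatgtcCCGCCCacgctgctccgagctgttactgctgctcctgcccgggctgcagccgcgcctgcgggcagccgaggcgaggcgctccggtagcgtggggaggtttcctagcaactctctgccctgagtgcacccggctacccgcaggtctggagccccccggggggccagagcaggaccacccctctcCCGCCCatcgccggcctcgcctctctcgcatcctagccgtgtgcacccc
The ITGA4 window held 25 CG dinucleotides and no searched motif, that of ITGA8 held 19 and 4 GC boxes, of which 3 lie in 1 run next to the start, and that of ITGB8 held 21 and 2 GC boxes. RefSeq windows were available for 26 of the 38 members, 33 windows in all, and LAMC3 had no entry. A GC box on either strand was found in 17 of the 33 member windows (51.5%) and in 42.6% of all 35116 windows. The letters GGAATG, the core bound by TEAD factors, were in 4 member windows (12.1%, against 11.9% of all windows), those of ITGA5, ITGA10, ITGB1 and LAMA2. The AP-1 letters TGANTCA were in 2 (6.06%, against 6.57%), those of LAMA3 and LAMB3. None of these 3 motifs contains another, and a match is a description of sequence only.

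The remaining alpha chains that recognize the RGD sequence differed in level and did not pass in edgeR with all 6 libraries and TMM. Without control replicate 3 ITGAV and ITGA2B passed and ITGA5 did not, where 65.6% of all genes passed. ITGAV, which pairs with 5 beta chains, had 19610, 16527 and 3602 counts in control and 11036, 9082 and 12190 in knockout libraries. Control replicate 3 was its lowest library by far, the knockout libraries lay between it and the other controls, and the log2 fold change was -0.14 ± 0.56 (adjusted p = 0.88, edgeR), or -0.62 without it. ITGA5, the fibronectin receptor chain, had 6398, 6453 and 6009 counts against 6028, 6450 and 6675. Its log2 fold change was 0.18 ± 0.08 (adjusted p = 0.176, edgeR). ITGA2B, the platelet fibrinogen receptor chain, had 585, 544 and 638 counts against 359, 383 and 369. All of its knockout libraries lay below all controls, with a log2 fold change of -0.51 ± 0.15 (adjusted p = 0.0624, edgeR). It passed in DESeq2 (adjusted p = 0.000455), in limma-voom (0.0314) and in edgeR with library size in place of TMM (0.0347).

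Alpha chains known from leukocytes were near the limit of detection, apart from ITGAE. ITGAM, the alpha chain of the complement receptor of macrophages, had 20, 16 and 13 counts in control and 47, 35 and 45 in knockout libraries. The groups did not overlap and control replicate 3 was the lowest library, and the log2 fold change was 1.52 ± 0.27 (adjusted p = 0.0178, edgeR). The call thus rested on fewer than 50 counts per library. ITGAX, a related complement receptor chain, had 76, 50 and 8 counts against 15, 18 and 9, which overlap through control replicate 3 alone. Its log2 fold change was -1.51 ± 0.75 (adjusted p = 0.209, edgeR), and -2.04 without that library. ITGAL, which binds intercellular adhesion molecules, had 5, 4 and 16 counts against 14, 9 and 15, with control replicate 3 as high as the knockout libraries. ITGAD, another chain of this family, had 20, 43 and 72 counts against 47, 63 and 46, with control replicate 3 the highest control and overlapping groups. Its log2 fold change was 0.36 ± 0.46 with all libraries and 0.84 without control replicate 3. ITGAE had 7732, 8750 and 6556 counts against 5081, 4579 and 5066. All knockout libraries lay below all controls, and the log2 fold change was -0.49 ± 0.13 (adjusted p = 0.051, edgeR; 0.0117, DESeq2; 0.0419, limma-voom). Some of its exon bases (7.65%) are shared with genes on the opposite strand, among them HASPIN, an intronless gene within it. HASPIN had 2549, 2359 and 2146 counts in control and 1634, 1812 and 1740 in knockout libraries. Its part in the ITGAE counts was not tested.

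A list of 7 leukocyte markers was measured beside these chains. Its summed level was 9.86, 9.85 and 12.5 CPM in control against 11.3, 11.4 and 10.7 CPM in knockout, and CORO1A, an actin-binding protein that other cells also express, was its most abundant gene, with 785, 770 and 1158 counts against 919, 944 and 891. CD14, a receptor of monocytes, had 159, 157 and 19 counts against 21, 27 and 33. As for ITGAX, control replicate 3 was low with the knockout libraries. The log2 fold change of CD14 was -1.89 ± 0.74 (adjusted p = 0.127, edgeR), or -2.42 without control replicate 3. LYZ and SPI1 of the same list, also named after their values were seen, did not follow CD14. LYZ had 5, 3 and 1 counts against 5, 8 and 9, with all knockout CPM above all controls. SPI1 had 2, 7 and 21 counts against 4, 11 and 10. The part of these markers in the values of the leukocyte chains was not tested. PTPRC, which defines leukocytes as CD45, had 7, 9 and 4 counts against 3, 5 and 0, and CD3E had at most 3 counts in every library. ITGB2, the beta partner of ITGAL, ITGAM, ITGAX and ITGAD, had 74, 105 and 123 counts against 55, 69 and 53, with control replicate 3 the highest library (log2 fold change -0.62 ± 0.26, adjusted p = 0.147, edgeR).

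None of the 7 integrin beta chains tested passed an adjusted p of 0.05 in edgeR with all libraries, beside 16.6% of all genes. In that fit 1 had an unadjusted p under 0.05. DESeq2 called 1 of the 7 (14.3%, beside 9.23% of all genes) and limma-voom 0 (beside 7.40%). Each had 2 at an unadjusted p under 0.05. Without control replicate 3, 5 of the 8 beta chains then tested, ITGB7 among them, passed in edgeR (62.5%, beside 65.6% of all genes). ITGB1 had 41856, 37660 and 20794 counts in control and 35296, 30597 and 35007 in knockout libraries. Only control replicate 3 was low, the other libraries overlapped, and the log2 fold change was 0.17 ± 0.26 (adjusted p = 0.684, edgeR), or -0.11 without control replicate 3. ITGB5, a partner of ITGAV, varied little and was highest in control replicate 3, with 3974, 4107 and 5395 counts against 3872, 4296 and 4169.

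ITGB6, an epithelial partner of ITGAV that activates TGF-beta, had 11, 6 and 2 counts in control and 25, 20 and 20 in knockout libraries. The groups did not overlap and control replicate 3 was the lowest, and the log2 fold change was 1.91 ± 0.52 (adjusted p = 0.0524, edgeR; 0.0332, DESeq2; 0.0657, limma-voom). ITGB8, another partner of ITGAV in TGF-beta activation, had 1345, 1128 and 179 counts against 388, 344 and 397. Control replicate 3 lay below the knockout libraries and the other controls well above them, and the log2 fold change was -1.07 ± 0.66 (adjusted p = 0.291, edgeR), or -1.59 without control replicate 3. ITGB3, a further partner of ITGAV, had 228, 189 and 74 counts against 73, 81 and 89. Control replicate 3 lay close to the knockout libraries and the other controls above them, with a log2 fold change of -0.86 ± 0.41 (adjusted p = 0.19, edgeR) that was -1.24 without it.

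ITGB4, the hemidesmosome chain that pairs with ITGA6, had 228, 253 and 790 counts in control and 258, 297 and 295 in knockout libraries. The single high library was control replicate 3, and without it the log2 fold change went from -0.43 ± 0.49 to 0.36. ITGB7, the partner of ITGA4 and ITGAE, had 2, 3 and 9 counts against 10, 13 and 7. It was left out by the filter with all libraries. Without control replicate 3 it passed the filter only through the knockout libraries, as both remaining controls were at or under the floor of 3 counts. Its call in that fit is therefore not read as a change. Exons of ZNF740, on the opposite strand, cover 42.3% of its exon bases, and ZNF740 had 6578, 6326 and 7014 counts in control and 5831, 5833 and 5752 in knockout libraries.

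**Figure D3:**
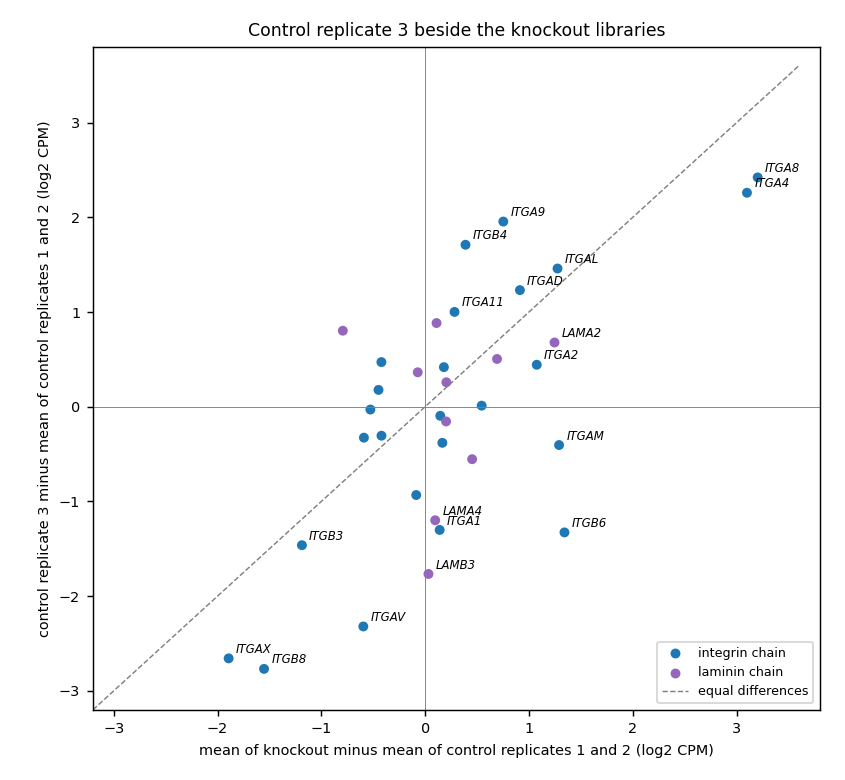
Difference in log2 CPM of control replicate 3 from the mean of control replicates 1 and 2 (vertical axis) against the difference of the mean of the 3 knockout libraries from the same mean (horizontal axis), for 35 tested members, with names where either difference is at least 1. Both axes share control replicates 1 and 2, so the points are a description; ITGA4 and ITGA8 lie far to the right and high, at 2.26 and 2.42 on the vertical axis, whereas LAMB3, at -1.77, lies at 0.03 on the horizontal axis.

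Of the laminin gamma chains, LAMC3, found in few basement membranes, had 735, 735 and 1283 counts in control and 384, 355 and 402 in knockout libraries. All knockout libraries lay below all controls, control replicate 3 being the highest, and the log2 fold change was -1.11 ± 0.26 (adjusted p = 0.0361, edgeR). Without control replicate 3 it was -0.83, short of the fold threshold. LAMC1 had 36668, 30755 and 22863 counts against 39506, 38525 and 46067. Its knockout libraries exceeded all controls, with a log2 fold change of 0.61 ± 0.18 (adjusted p = 0.0658, edgeR; 0.0311, DESeq2; 0.105, limma-voom).

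Of the 5 laminin alpha chains, 1 passed the test without the fold threshold. LAMA2, the alpha chain of the muscle and nerve basement membrane, had 385, 430 and 652 counts in control and 802, 824 and 991 in knockout libraries. The groups did not overlap, with control replicate 3 the highest control, and the log2 fold change was 0.99 ± 0.24 (adjusted p = 0.0388, edgeR). LAMA1, the alpha chain of the early embryo and of kidney tubules, had 4205, 3617 and 5530 counts against 5389, 5108 and 6574. Its log2 fold change was 0.51 ± 0.18 (adjusted p = 0.101, edgeR). LAMA3, of epithelial laminins, had 7521, 6715 and 6378 counts against 7177, 6751 and 8138, with a log2 fold change of 0.25 ± 0.11 (adjusted p = 0.155, edgeR).

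LAMA4 and LAMA5 differed mainly in control replicate 3, in opposite directions. LAMA4, of the vessel wall and of mesenchymal cells, had 12679, 12365 and 5451 counts in control and 11470, 11663 and 12964 in knockout libraries. LAMA5, the most widespread alpha chain of adult epithelia, had 7007, 6618 and 12559 counts against 6295, 6218 and 7323. Of the length-scaled counts of the laminin alpha chains, LAMA4 held 45.1% and 46.8% in control replicates 1 and 2, 21.2% in control replicate 3, and between 41.5% and 43.7% in the knockout libraries. LAMA5 held 20.9% and 21.0%, then 40.9%, and between 19.5% and 19.6% in the knockout libraries. Their log2 fold changes were 0.40 ± 0.31 and -0.25 ± 0.26, and without control replicate 3 they were 0.07 and 0.08.

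No laminin beta chain passed the test in edgeR among the 3 tested, beside 16.6% of all genes. None of the 3 had an unadjusted p under 0.05 with all libraries in edgeR, DESeq2 or limma-voom. LAMB1, the beta chain of most embryonic laminins, had 15237, 14138 and 17546 counts in control and 14625, 14505 and 16468 in knockout libraries. LAMB2 had 9962, 9635 and 12599 counts against 8175, 7794 and 9190, with a log2 fold change of -0.20 ± 0.13 (adjusted p = 0.327, edgeR). LAMB3, the beta chain that joins LAMA3 in epithelial laminin, had 3167, 3170 and 930 counts against 2668, 2916 and 3157. Control replicate 3 was the only low library, and LAMB3 held 6.71% of the length-scaled laminin beta chain counts there against between 22.5% and 24.7% in the other 5 libraries. With the length of the canonical transcript these shares were 4.17% and between 14.2% and 15.8%. LAMB4 had 0, 1 and 12 counts against 5, 3 and 7.

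**Figure D4:**
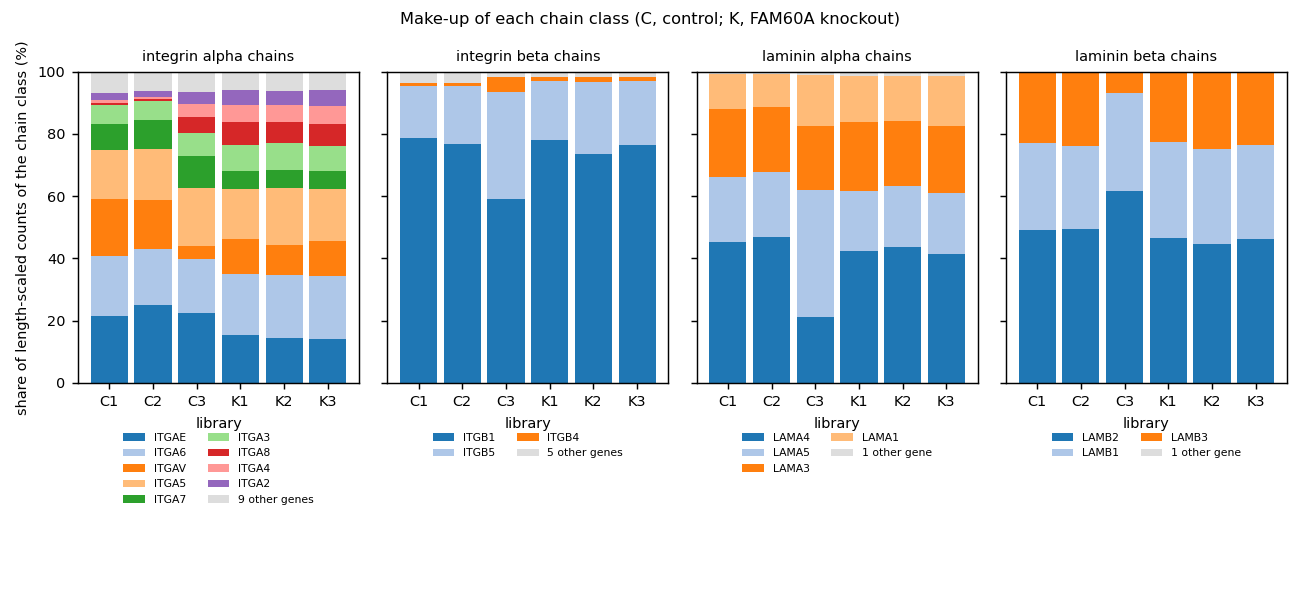
Share of each gene in the length-scaled counts of its chain class, for the integrin alpha, integrin beta, laminin alpha and laminin beta chains (stacked bars from 0 to 100%), in the 3 control (C1 to C3) and 3 knockout (K1 to K3) libraries, with genes that never reach 4% pooled in grey. C3 departs from C1 and C2 in ITGAV, ITGB1, LAMA4 and LAMB3, and K1 to K3 resemble C1 and C2 in ITGB1, LAMA4 and LAMB3.

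The make-up of the integrin alpha chains also differed between libraries. ITGA4 held 0.757%, 0.636% and 4.07% of the length-scaled alpha chain counts in control and 5.74%, 5.42% and 5.94% in knockout libraries, and ITGA8 held 0.851%, 0.726% and 5.17% against 7.17%, 6.79% and 6.87%. ITGAV held 18.4%, 16% and 4.20% against 11.3%, 9.85% and 11.5%. In these 3 genes the knockout libraries were alike, whereas the control libraries were not. Of the length-scaled beta chain counts, ITGB1 held 59.1% in control replicate 3 and between 73.6% and 78.7% in the other 5 libraries. The shares depend on the length used. With the canonical transcript ITGB1 held 79.6% in control replicate 3 and between 88.1% and 90.7% elsewhere, ITGA8 held 0.52%, 0.445% and 3.48% against 4.75%, 4.53% and 4.55%, and ITGAV held 27.7%, 24.2% and 6.95% against 18.3%, 16.1% and 18.7%. In these 3 genes control replicate 3 differed from the other controls in the same direction with both lengths.

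Genes that work with integrins and laminins were taken from 4 lists of 73 genes in all, of which 71 were tested. The called genes numbered 10 (14.1%), 4 higher and 6 lower, beside the 7.06% of all genes. The 4 higher include VCAM1, which passed the filter only through its knockout libraries. With library size in place of TMM they were 4 higher and 8 lower. Without the fold threshold 22 passed (31.0%), 11 in each direction, beside 16.6% of all genes, and with library size 8 were higher and 15 lower. The median log2 fold change was 0.016. With control replicate 3 left out, 19 of the 71 were called, 10 higher and 9 lower (26.8%, beside 22.9%). Without the fold threshold 60 of 71 passed in that fit (84.5%, beside 65.6%). With another library left out from 1 to 6 passed, beside from 0.763% to 4.89% of all genes. The replicate block left 4 (5.63%, beside 1.94%).

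Of the ligands that integrins bind, 4 of 16 were called (25.0%, beside 7.06% of all genes). The 4 include VCAM1, which passed the filter only through its knockout libraries. FN1, fibronectin, the ligand of ITGA5 and ITGA4 receptors, had 79336, 71554 and 9148 counts in control and 4463, 4479 and 5853 in knockout libraries. The knockout libraries lay below all controls, and control replicate 3 was close above them. FN1 had a log2 fold change of -3.28 ± 0.75 (adjusted p = 0.0343, edgeR). VTN, vitronectin, a ligand of ITGAV receptors, had 35, 42 and 78 counts against 15, 11 and 10, with a log2 fold change of -1.94 ± 0.40 (adjusted p = 0.0261, edgeR). MADCAM1, a ligand of the ITGA4 and ITGB7 pair, had 80, 110 and 94 counts against 24, 51 and 33, and fell by 1.24 ± 0.31 on the log2 scale (adjusted p = 0.0434, edgeR).

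VCAM1, the cell surface ligand of ITGA4 receptors, had 1, 2 and 1 counts in control and 25, 16 and 28 in knockout libraries. With the controls at or under the floor of 3 counts per library, it was at least 8.55-fold higher in knockout. VCAM1 passed the filter only through its knockout libraries, so its call is not read as a test. Control replicate 3 was as low as the other controls. NPNT, nephronectin, the ligand of the ITGA8 receptor, passed the test without the fold threshold, with 3119, 3029 and 4000 counts against 4900, 4534 and 5053. Its log2 fold change was 0.67 ± 0.14 (adjusted p = 0.0241, edgeR). The other ligands to pass in this way were L1CAM, a neural adhesion molecule, and TGFB1, whose latent form binds ITGAV receptors, and both fell. In all, 7 of the 16 ligands passed without the fold threshold (43.8%, beside 16.6% of all genes).

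Among 6 other laminin receptors 1 gene was called (16.7%, beside 7.06% of all genes). This was SDC4, syndecan-4, a heparan sulfate proteoglycan that binds laminin and fibronectin beside integrins. It had 3450, 3263 and 2979 counts in control and 8643, 8959 and 9053 in knockout libraries. Control replicate 3 was the lowest library here and did not stand between the groups. The log2 fold change was 1.61 ± 0.09 (adjusted p = 0.00134, edgeR), and its adjusted p stayed at most 0.05 in all 12 alternatives that were run.

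Of the 19 basement membrane and laminin partner genes, 3 were called (15.8%, beside 7.06% of all genes). FRAS1 and FREM2, which act together in the basement membrane of developing skin and kidney, had 2138, 1734 and 3422 counts against 4637, 4419 and 6141, and 3265, 2653 and 5277 against 7462, 6684 and 8844. In both genes the knockout libraries exceeded all controls and control replicate 3 was the highest control. The log2 fold changes were 1.21 ± 0.27 (adjusted p = 0.0317, edgeR) and 1.19 ± 0.27 (adjusted p = 0.0311, edgeR). SMOC2, a calcium-binding matrix protein, had 39, 26 and 26 counts against 5, 7 and 6, with a log2 fold change of -2.16 ± 0.32 (adjusted p = 0.011, edgeR). SMOC2 had fewer than 10 counts in every knockout library and passed the filter only through the controls. Another 3 passed without the fold threshold, COL4A1 and COL4A4, chains of basement membrane collagen, higher, and AGRN, agrin, lower. In all, 6 of the 19 then passed (31.6%, beside 16.6% of all genes).

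Adaptor and signalling genes inside the cell gave 2 calls among 30 (6.67%, beside 7.06% of all genes). FLNA, filamin A, which crosslinks actin and binds integrin beta tails, had 216099, 199332 and 72328 counts in control and 29819, 31420 and 35726 in knockout libraries. ZYX, zyxin, a protein of focal adhesions, had 10123, 12123 and 5749 counts against 2027, 3131 and 2384. In both genes the knockout libraries were the lowest and control replicate 3 the lowest control. The log2 fold changes were -2.18 ± 0.40 (adjusted p = 0.0195, edgeR) and -1.74 ± 0.30 (adjusted p = 0.0162, edgeR). Without the fold threshold 6 more adaptor genes passed, so that 8 of 30 passed (26.7%, beside 16.6% of all genes). Of the 6, ACTN4, CD9, CD151 and PARVB were higher and SRC and TNS3 lower.

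**Figure D5:**
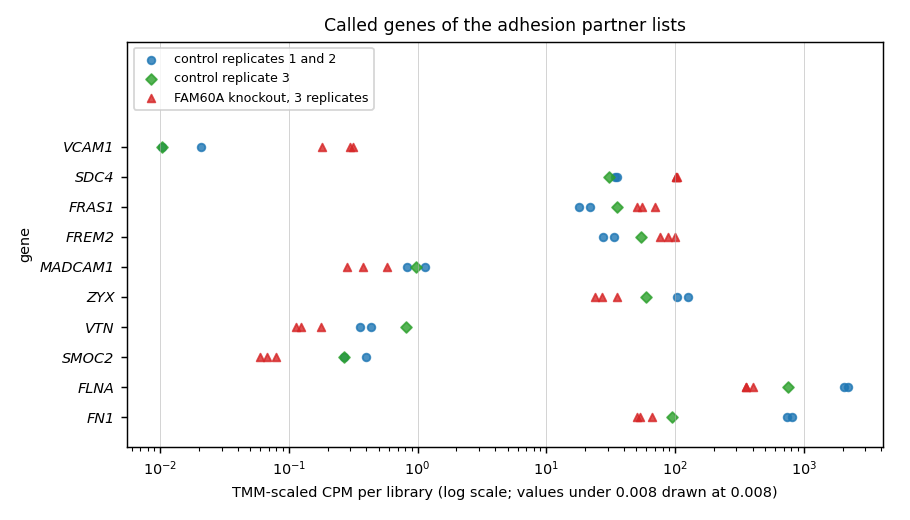
TMM-scaled CPM of the 10 called partner genes in each library on a log axis, ordered from the largest rise to the largest fall, with the same symbols as in the plot of the members by library. The knockout triangles do not overlap the control symbols in any of these genes, and the control replicate 3 diamond lies with the other controls in VCAM1, SDC4, MADCAM1 and SMOC2 and apart from them in FN1, FLNA and ZYX.

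Each of the 6 members that passed the test without the fold threshold kept an adjusted p of at most 0.05 in only 1 of the 6 fits that left out a library, the one without control replicate 3, and the partner genes FN1, FLNA, ZYX, FRAS1, FREM2 and MADCAM1 also passed in only that 1 fit. VTN passed in 2 and SMOC2 in 3 of these fits. VCAM1 is left out here, as it passed the filter only through its knockout libraries. FN1 also missed the threshold with limma-voom (adjusted p = 0.0658). SDC4 passed in all 6 of these fits. Log2 fold changes in these fits lay between 0.78 and 1.05 for ITGA2 and between 0.51 and 0.59 for ITGA3. They lay between 1.35 and 1.66 for ITGAM and between 0.815 and 1.22 for LAMA2. For ITGA7 they lay between -0.56 and -0.45, and for LAMC3 between -1.28 and -0.825. Those of FN1 lay between -3.81 and -2.93, of FLNA between -2.56 and -1.96, and of ZYX between -2.02 and -1.5.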

How the data were processed

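RNA-seq was compared between 3 control and 3 FAM60A-knockout libraries, grouped by the condition in their labels. The values that the authors deposited were raw counts, whole numbers for each Ensembl gene. The submitters' processing notes name STAR 2.7.10b, featureCounts 2.0.0 and hg38, whereas the study's methods name Trimmomatic and Salmon on hg38 and the extract protocol names hg19; the annotation release is not given in the sources used here. The library kit selected poly(A) RNA and kept the strand. Of 62754 genes, 60878 were matched to a symbol in GENCODE release 44 lifted to GRCh37, which also gave exon lengths and coordinates.

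Total counts per library lay between 88361827 and 93346824. Where all libraries of a group had 3 counts or fewer, folds are lower bounds against that floor, which covers counting error only. The comparison used edgeR 4.0.16 in R 4.3.3 with TMM factors, its filterByExpr function (minimum count 10) and glmQLFTest, the quasi-likelihood test (two-sided), adjusted by Benjamini-Hochberg over the 20992 genes tested. The common dispersion was 0.0854, and the prior degrees of freedom were 2.44. A prior count of 2 was used for log2 CPM. The study's methods name limma, and edgeR was used because the values are counts. Simulated counts with known changes were used to test the fit.

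Alternatives were DESeq2 1.42.0, library size without TMM, limma-voom (limma 3.58.1) after quantile normalization, no filter on low counts, at least 10 counts in every library, the replicate number as a block, and leaving out each library. The members, lists, tests and alternatives were chosen with earlier results of these data known. Named genes were the called members, uncalled members past the fold threshold, the 5 members highest per length, members called only without control replicate 3, and called genes of the partner lists; other members are given for completeness, and NPNT, HASPIN, CERKL, ZNF740, CD14, LHX1, NEFM, PAX2, NEFL, EYA1 and the partner genes that passed without the fold threshold were named after their values were seen. Protein motifs were not analysed here, and 1 member, included in the counts of members, is not reported here by itself.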

Additional observations from a re-analysis of the deposited data

How the results depend on the processing

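Of the 547 values of single genes under the alternatives, 418 kept their direction and their side of an adjusted p of 0.05, 83 lost the threshold, 31 gained it and 15 reversed. The number of members called (2) was 6 with DESeq2 (16.7%, beside 9.23% of all genes), 5 with limma-voom (13.9%, beside 7.40%) and 0 with the replicate block, and from 0 to 12 when 1 library was left out. Without the fold threshold (6) it was 13 with DESeq2 (36.1%, beside 26.8%), 11 with limma-voom (30.6%, beside 17.2%), 0 with the replicate block, and from 0 to 24 with a library left out. Where edgeR gave 0, 14 members had an unadjusted p under 0.05 with the block and from 10 to 14 with a library other than control replicate 3 left out, beside 14 in the fit of all libraries. The called partner genes (10) were 4 with the replicate block and from 1 to 19 with a library left out, and the called genes of the whole table (1482) were 334 and from 156 to 4965. The upper ends of these ranges come from the fit without control replicate 3. The log2 fold change of FAM60A lay between -0.92 and -0.78 with a library left out, and its adjusted p was 0.0719, 0.0571 and 0.0736 without knockout replicates 1, 2 and 3 (edgeR quasi-likelihood test) and 0.0551 with the replicate block. Without control replicates 1, 2 and 3 the adjusted p of FAM60A was 0.032, 0.0294 and 7.73e-09 (edgeR quasi-likelihood test). All of these fits, the one without control replicate 3 included, have fewer residual degrees of freedom. Why their results differed was not tested.

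Deviations of same-numbered libraries were little correlated (r = 0.0101, 0.0306 and -0.0362 for replicates 1, 2 and 3), and not every library correlated best with its own number. With 3 libraries per group, these values cannot show whether same-numbered libraries were handled together. Reversed log2 fold changes were ITGA9 at 0.060 (limma-voom), 0.11 (replicate block) and 0.73 (without control replicate 3), ITGAV at 0.19 (limma-voom), 0.13 (replicate block), 0.21 (without control replicate 1) and 0.05 (without control replicate 2), and ITGB5 at -0.081 (library size without TMM), -0.083 and -0.032 (without control replicates 1 and 2). ITGAD was -0.019 without control replicate 1, and without control replicate 3 ITGA11 was 0.27, ITGB1 -0.11, ITGB4 0.36 and LAMA5 0.082. With a library left out, log2 fold changes ranged from -0.36 to 0.27 for ITGA11, from -0.56 to 0.73 for ITGA9, from -0.019 to 0.84 for ITGAD, from -0.62 to 0.21 for ITGAV, from -0.11 to 0.32 for ITGB1, from -0.75 to 0.36 for ITGB4, from -0.083 to 0.15 for ITGB5 and from -0.41 to 0.082 for LAMA5. The cause was not tested. Depth limits ITGAL, ITGAM, ITGB6, ITGB7, LAMB4, VCAM1 and SMOC2, which had fewer than 50 counts in every library.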

Other observations

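Some markers of other tissues differed between the groups and others did not. In edgeR without the fold threshold 16.6% of all genes passed. The 7 fibroblast markers summed to 29.1, 30.2 and 26.4 CPM in control and 28.1, 28.3 and 28.9 CPM in knockout libraries, with COL1A1 the most abundant at 2446, 2526 and 1854 counts against 1145, 1401 and 1324. The even sum joined opposite changes. COL1A1 fell by 0.66 ± 0.16 on the log2 scale (adjusted p = 0.0361, edgeR), whereas LUM, lumican, rose, with 244, 223 and 47 counts against 789, 642 and 727 (log2 fold change 2.23 ± 0.58, adjusted p = 0.0463, edgeR). The counts of PDGFRA were 76, 76 and 229 against 222, 223 and 276, at a log2 fold change of 1.07 ± 0.47 (adjusted p = 0.161, edgeR). Without control replicate 3 it was 1.78 (adjusted p = 3.63e-09, edgeR). DCN, a small proteoglycan of the matrix, had 0, 1 and 1 counts in control and 30, 33 and 33 in knockout libraries. Against the floor it was at least 11.9-fold higher in knockout. DCN passed the filter only through its knockout libraries, so its p-value is not read as a test. COL3A1 and PDGFRB of the same list did not pass, with log2 fold changes of 0.20 ± 0.81 and -0.053 ± 0.42 (adjusted p = 0.886 and 0.942, edgeR). LUM, PDGFRA, DCN, COL3A1, PDGFRB and VWF were chosen from the lists after their values were seen. The 4 endothelial markers measured summed to 1.55, 1.57 and 0.921 CPM against 0.332, 0.513 and 0.498 CPM, and the most abundant, KDR, had 83, 74 and 8 counts against 21, 20 and 25, so that control replicate 3 was its lowest library. VWF, von Willebrand factor, fell, with 43, 57 and 65 counts against 3, 14 and 11 (log2 fold change -2.40 ± 0.48, adjusted p = 0.0241, edgeR). The 4 markers of stratified epithelium summed to between 0.113 and 0.321 CPM, with TP63 the most abundant at between 3 and 9 counts. Markers chosen for MDA-MB-231, a breast carcinoma line also used in the study, summed to 129, 129 and 84.2 CPM against 107, 101 and 96.6 CPM, with CAV1, which HEK293 cells also express, the most abundant.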
